A study of Mus musculus with 18 samples.

Results

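Replication-dependent histone genes encode the bulk of the histone protein that packs newly copied DNA. They were taken here as every row of the deposited expression table whose symbol carries a cluster name of H1, H2A, H2B, H3 or H4, which gave 65 of 56876 rows. Of these, 5 encode linker histone H1, 19 encode H2A, 17 encode H2B, 12 encode H3 and 12 encode H4. Among them is 1 row named as a pseudogene, H2ac5-ps.

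The libraries are RNA-seq of splenocytes, the cells of the spleen, from female Balb/c mice. According to the series' design text, the tumour was 4T1, a mouse mammary carcinoma line, placed in the mammary fat pad on day 0. Mice were injected at 10 mg/kg with an antibody to G-CSF, an antibody to PD-1 or anti-IgG on days 18, 21 and 24, and splenocytes were taken on day 29. The 6 groups are T_GC, T_P, T_I, N_GC, N_P and N_I, with 3 libraries each, and the groups follow the titles. T and N are read as mice with and without the tumour, and the codes GC, P and I, which the labels do not spell out, are used as they stand. Other tags conflict with the titles: under treatment all T libraries read anti-PD-1 and all N libraries read WT, and under cell type all 18 read tumour-bearing. No label gives a mouse's age or ties a library to more than its title. Nothing says that the 3 libraries of a group came from separate mice, so p-values measure the spread between these libraries, which may be technical.

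Each nucleosome core holds H2A, H2B, H3 and H4, and H1 sits on the linker DNA between cores. Cells transcribe these genes mainly in S phase, when DNA is copied, and the genes lie in dense clusters of many near-identical copies. Their mRNAs end in a conserved stem-loop rather than a poly(A) tail; the stem-loop binding protein Slbp holds this end and guides its processing. Some copies also give polyadenylated mRNAs with longer ends, chiefly in cells that have stopped dividing. The kit named in the labels is an mRNA library kit used on total RNA, and whether poly(A) selection was applied is not stated, so the values may not count all mRNA of these genes.

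The stem-loop was read from 1 GENCODE M21 transcript model per gene (GRCm38) and is shown because it is the end that sets these mRNAs apart. Of the 65 genes, 55 lie on chromosome 13 and 10 on chromosome 3, and 42 models held the stem-loop, in 8 distinct sequences of 16 bases. Below are the ends of the most abundant gene, of the leading H4 genes and of H3c8, the H3 gene of smallest p in T_I against N_I, with the stem-loop in capitals and the nearest bases of the 3′ UTR in lower case.
H2ac18 and H2ac19: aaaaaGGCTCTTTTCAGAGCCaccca
H4c17: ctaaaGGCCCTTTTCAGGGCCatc
H4c9: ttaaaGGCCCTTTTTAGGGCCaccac
H3c8: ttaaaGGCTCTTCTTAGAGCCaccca
The H2ac18 form was shared by 24 genes of the H1, H2A, H2B and H3 classes and by no H4 gene. All 6 genes with the H4c17 form encode H4. A stem-loop of the same kind stood in 46 of 58729 other protein-coding transcripts, which is 0.0783%.

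Of the 23 models without the stem-loop, 15 ended within 35 bases after the stop codon, so the region was not in the model, and 2 had no coding part. The other 6 had longer 3′ UTRs, among them H2bc4, H2bc21, H2bc23 and H2bc24. Among the models with it, 22 ended within 60 bases after the stem-loop and 16 ran on for 300 bases or more, as those of H1f2, H1f4 and H4c9 do. These models ran from 312 to 7425 bases. The TPM were made on another build, GRCm39, so the transcript lengths behind them may differ from these.

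**Figure D1:**
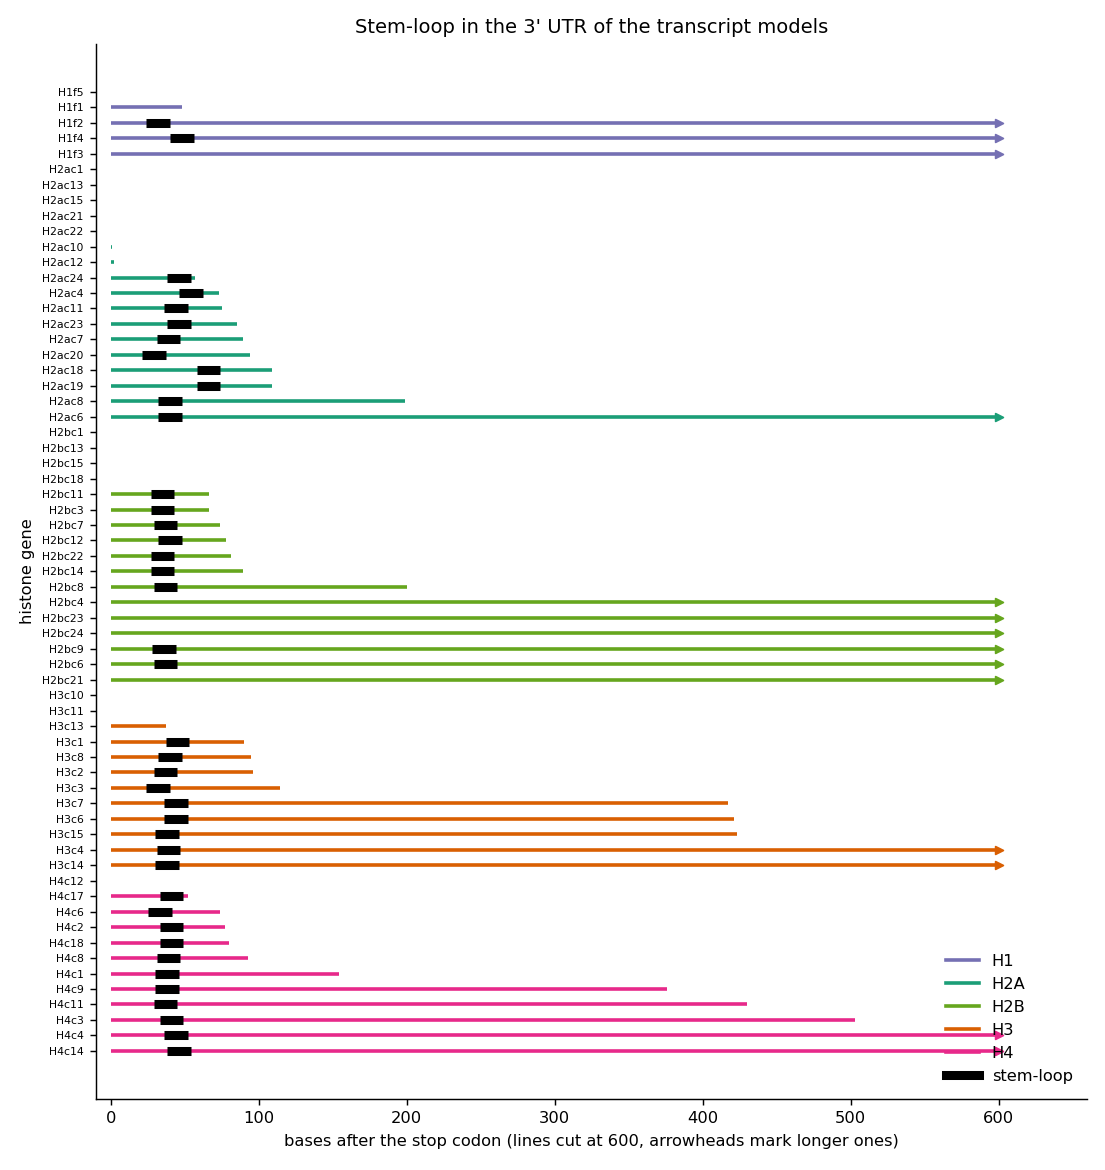
Each line is the 3′ UTR of 1 histone gene's transcript model, in bases after the stop codon, coloured by class, with the stem-loop in black. Nearly all stem-loops lie 21 to 58 bases after the stop codon; the H1f3 one, at 1139 bases, is outside the axis, 2 models without a coding part are left out, and genes with no line have a model that ends at the stop codon.

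Promoters were taken from RefSeq (GRCm38.p6) as 250 bases before and 50 after the start, and 57 of the 65 genes matched by symbol. They are shown for H2ac18 and H4c9, which rose with all 3 codes, and for H2bc12, which rose with codes I and P, with the motifs found in capitals. The search took the CCAAT box by those letters, the octamer as ATTTGCAT and the TATA box as TATAAA, each on either strand.
H2ac18, chr3:96245247-96245546, + strand: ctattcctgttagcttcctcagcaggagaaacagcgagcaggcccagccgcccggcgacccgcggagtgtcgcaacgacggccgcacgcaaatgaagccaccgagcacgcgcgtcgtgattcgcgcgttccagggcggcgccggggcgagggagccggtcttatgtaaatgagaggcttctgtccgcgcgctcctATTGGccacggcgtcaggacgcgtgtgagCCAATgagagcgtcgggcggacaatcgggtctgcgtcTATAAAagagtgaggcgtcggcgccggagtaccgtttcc
H2bc12, chr13:22035571-22035870, + strand: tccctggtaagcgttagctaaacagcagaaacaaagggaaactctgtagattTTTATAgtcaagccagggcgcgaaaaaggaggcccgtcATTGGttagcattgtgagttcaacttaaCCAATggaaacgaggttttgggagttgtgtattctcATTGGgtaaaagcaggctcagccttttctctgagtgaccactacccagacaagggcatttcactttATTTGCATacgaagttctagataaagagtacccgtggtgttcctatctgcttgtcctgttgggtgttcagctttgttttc
H4c9, chr13:22041313-22041612, - strand: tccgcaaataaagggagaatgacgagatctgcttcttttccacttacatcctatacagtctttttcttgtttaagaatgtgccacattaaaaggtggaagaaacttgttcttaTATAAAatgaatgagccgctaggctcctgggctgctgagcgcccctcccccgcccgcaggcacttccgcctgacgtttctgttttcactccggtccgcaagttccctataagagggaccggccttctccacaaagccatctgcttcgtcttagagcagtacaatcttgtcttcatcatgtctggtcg
CCAAT stood in 49 of the 57 histone promoters (86%), against 37.4% of all 32851 promoters of this length. The 8 without it were all H4 promoters, of which 3 of 11 held it. TATAAA stood in 34 (59.6%), against 13.6% of all promoters. The octamer stood in 13 (22.8%), against 1.74%, and these were 6 of 17 H2A and 7 of 14 H2B promoters. Since 9 pairs of an H2A and an H2B gene face each other with 162 to 279 bases between their starts, many of these windows overlap and share their letters.

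Expression was deposited as TPM, a share of all transcripts adjusted for transcript length. TPM holds no depth, so the depth behind each value is unknown. The histone genes were low: 34 averaged under 1 TPM over the 18 libraries, 22 averaged 1 to under 5 TPM, 6 averaged 5 to under 20 TPM and 3 averaged 20 TPM or more. The 3 highest were H2ac18 at 49.0 TPM, H2ac19 at 35.4 TPM and H4c17 at 24.3 TPM. The genes H2ac1 and H2bc1, known from testis, were listed at 0 in all 18 libraries.

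Together the 65 genes summed to 238 ± 14.4 TPM in T_GC, 331 ± 10.5 TPM in T_P, 368 ± 40.7 TPM in T_I, 157 ± 15.8 TPM in N_GC, 129 ± 8.42 TPM in N_P and 152 ± 3.54 TPM in N_I (SD, n = 3 each). The lowest T library, at 229 TPM, stood above the highest N library, at 174 TPM. T_GC libraries lay between 229 and 254 TPM, below every T_P and T_I library, of which the lowest had 324 TPM. The summed TPM is a level over all members, and it is given without a test.

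**Figure D2:**
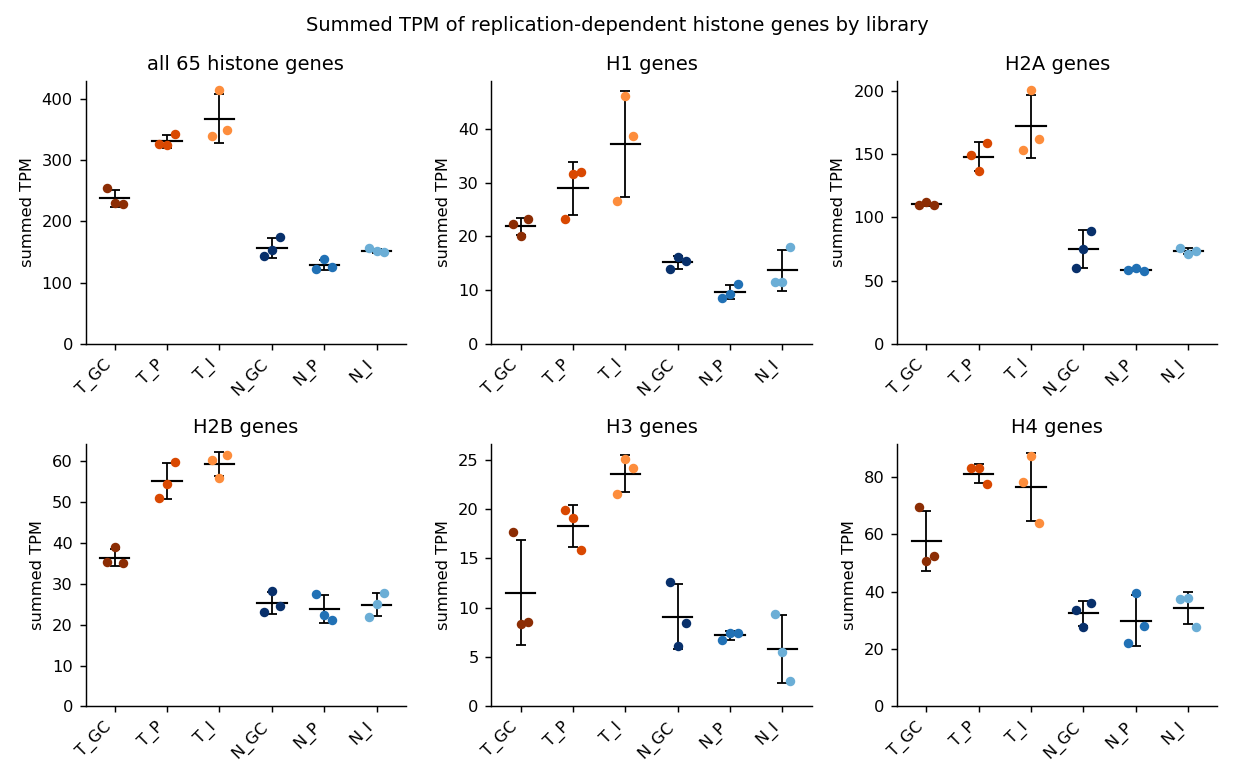
Summed TPM of all 65 histone genes and of each class (y axes, from 0) in every library, by group; points are libraries and bars the mean ± SD of 3. The T groups stand above the N groups, except that for H3 the T_GC libraries overlap those of N_GC and N_I. T_GC lies below T_P and T_I for the sum of all genes.

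H2A genes held the largest part of the summed TPM in every group, 46.5% ± 3.04 in T_GC, 44.6% ± 2.27 in T_P, 46.6% ± 1.62 in T_I, 47.4% ± 4.96 in N_GC, 45.4% ± 2.07 in N_P and 48.3% ± 1.01 in N_I (SD, n = 3 each). H3 genes held the smallest part, with group means of 3.80% in N_I to 6.43% in T_I. H4 genes held 20.8% to 24.5%, H2B genes 15.3% to 18.5% and H1 genes 7.48% to 10.0%. The class shares of the T and N groups lay close together while the sums differed. H2ac18 and H2ac19 alone carried 38.3% of the sum in T_GC, 33.7% in T_P, 33.2% in T_I, 42.5% in N_GC, 40.6% in N_P and 41.5% in N_I.

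Genes that reached 1 TPM in 3 or more libraries entered a limma fit on log2(TPM + 1) and were called at a Benjamini-Hochberg adjusted p under 0.05 over all 16635 genes tested. Of the 65 histone genes, 46 passed this filter (3 H1, 13 H2A, 11 H2B, 10 H3 and 9 H4) and 19 did not. The filter let in 20 of the 46 with 1 TPM or more in fewer than 3 N libraries, so these would not have passed on their N libraries alone, and 26 had it in 3 or more N libraries. Fold changes are on the log2(TPM + 1) scale, which understates changes of low genes.

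With code I, 25 of the 46 tested histone genes rose and 1 fell in T_I against N_I. Over all genes tested, 17.4% rose and 52.4% fell in this comparison. Among the 26 tested histone genes with 1 TPM or more in 3 or more N libraries, 12 rose and 1 fell, and the other 13 that rose were among the 20 that needed their T libraries to pass the filter. The median log2 fold change over all genes was -0.45; it was 0.94 over the 46 and 0.85 over the 26. With code P, 24 rose and 1 fell in T_P against N_P, where 18.9% of all genes rose and 50.3% fell, and the median was 0.70 for histone genes and -0.41 for all genes; of the 26, 11 rose and 1 fell (median 0.59). With code GC, 10 rose and none fell in T_GC against N_GC, where 14.3% of all genes rose and 18.9% fell, and the medians were 0.44 and -0.09; of the 26, 5 rose (median 0.39).

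With median-of-ratios scaling the all-gene median shifted by 0.42 for code I, 0.38 for code P and 0.08 for code GC. The histone counts then stood at 32 risen and none fallen, 26 risen and 1 fallen, and 10 risen and none fallen, where 32%, 32.3% and 18% of all genes rose and 30.2%, 30.5% and 13.1% fell. More histone genes were called higher than lower under either scaling. Under median-of-ratios scaling this held for all genes too, by a smaller margin with codes I and P. With code GC the 10 of 46 histone genes risen stood near the 18% of all genes. The sizes below are those of the TPM as deposited.

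In all 3 codes, 9 histone genes rose in the T group, 13 rose in 2 codes, 6 in 1 code and 18 in none. The matching shares of all genes were not computed, so these counts only describe the histone genes. By class, the genes called are described from the linker histone to H4, with every library's TPM for the leading ones.

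H1f2 was the most abundant linker histone gene. It had 19.7, 19.3 and 21.7 TPM in T_GC, 21.3, 28.4 and 29.9 TPM in T_P, and 24.0, 41.8 and 35.3 TPM in T_I. In tumour-free groups it had 13.4, 15.2 and 14.4 TPM in N_GC, 8.19, 8.34 and 10.5 TPM in N_P, and 10.95, 10.77 and 17.51 TPM in N_I. Every T library of a code stood above every N library of that code. The log2 fold change was 1.30 ± 0.20 (SE; limma adjusted p = 3.53e-05) in T_I against N_I and 1.45 (1.15e-05) in T_P against N_P, and 0.47 in T_GC against N_GC, which missed the threshold (adjusted p = 0.0842).

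H1f4 was low, at 1.37 ± 0.23 TPM in T_I and 0.517 ± 0.14 TPM in N_I (SD, n = 3 each), and rose with codes I (0.65) and P (0.81). H1f5 had 1.15, 2.62 and 1.2 TPM in T_I and 0, 0 and 0.13 TPM in N_I, a log2 fold change of 1.31 (limma adjusted p = 0.00114). Its call in T_P against N_P (0.70, adjusted p = 0.0475) was lost without any filter (0.0728) and without T_P replicates 39 (0.143) or 43 (0.0940) or N_P replicates 17 (0.0999), 29 (0.0993) or 38 (0.0660).

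H2ac18, the most abundant histone gene here, encodes a canonical H2A. It had 51.2, 40.2 and 47.0 TPM in T_GC, 81.0, 84.6 and 89.6 TPM in T_P, and 76.7, 93.0 and 69.7 TPM in T_I. The tumour-free values were 31.9, 30.4 and 34.5 TPM in N_GC, 20.5, 25.6 and 20.4 TPM in N_P, and 30.5, 25.6 and 29.7 TPM in N_I. No T library overlapped the N libraries of its code. The log2 fold changes were 1.44 ± 0.12 in T_I against N_I (SE; limma adjusted p = 5.62e-08), 1.90 in T_P against N_P (2.65e-09) and 0.50 in T_GC against N_GC (0.00479).

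H2ac19 is a copy of H2ac18. Over the 528 bases in which their models were compared the transcripts had 0 differences, so reads cannot tell them apart there and the split between them is uncertain. H2ac19 had 32.3, 53.0 and 48.1 TPM in T_GC, 27.7, 21.6 and 30.8 TPM in T_P, and 35.98, 45.81 and 45.18 TPM in T_I. It had 24.7, 33.3 and 46.2 TPM in N_GC, 31.2, 27.3 and 31.6 TPM in N_P, and 31.85, 35.02 and 36.51 TPM in N_I. The groups overlapped in every code, and it was not called (0.28 in T_I against N_I, limma adjusted p = 0.236), although under median-of-ratios scaling that value became 0.80 and was called. The sum of the copies does not depend on the split: it was 90.6 ± 6.24 TPM in T_GC, 112 ± 7.65 TPM in T_P, 122 ± 14.5 TPM in T_I, 66.9 ± 12.4 TPM in N_GC, 52.2 ± 0.668 TPM in N_P and 63.1 ± 2.86 TPM in N_I (SD, n = 3 each). In each code the lowest T sum stood above the highest N sum.

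**Figure D3:**
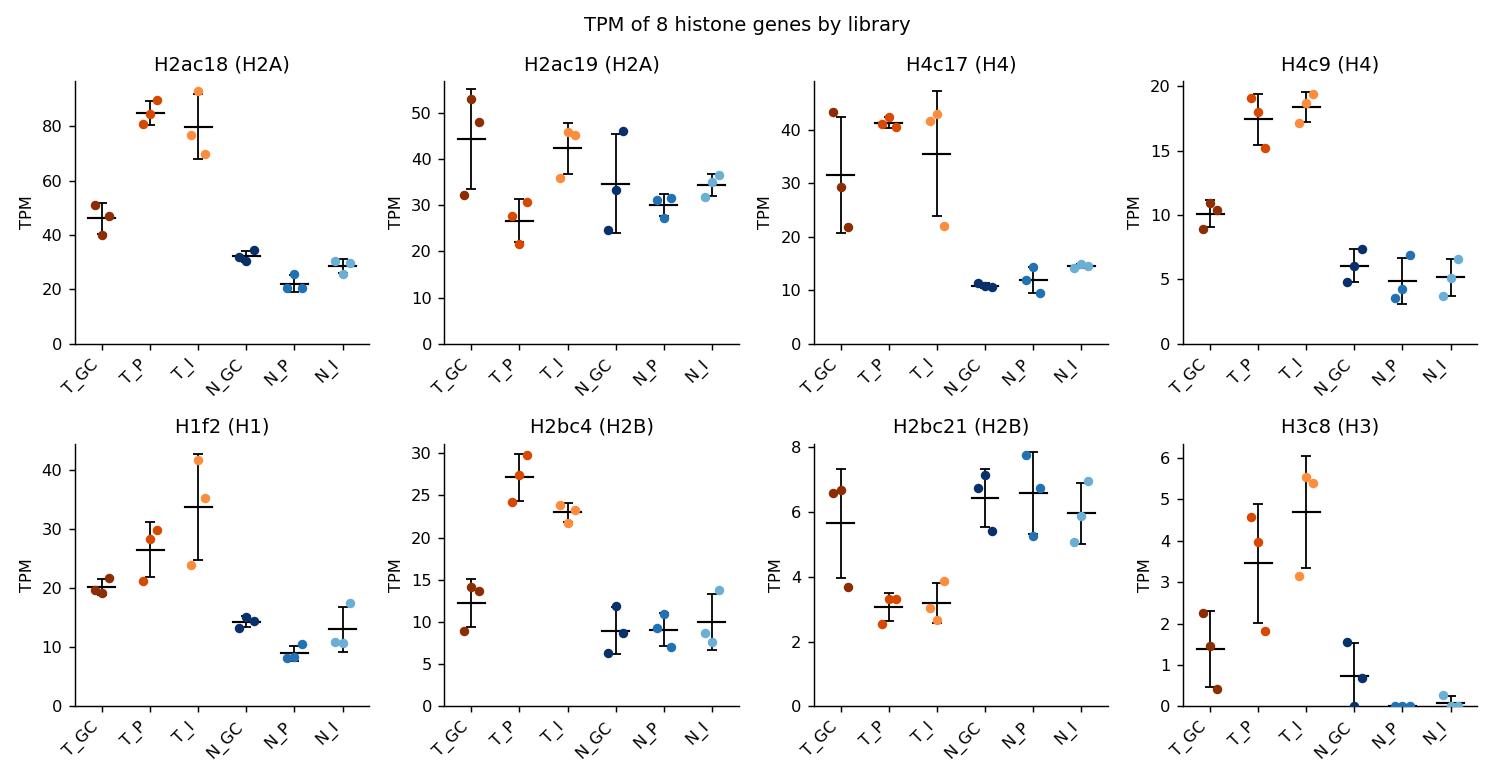
TPM (y axes, from 0) of 8 histone genes in every library, by group; points are libraries and bars the mean ± SD of 3. H2ac18 separates T from N in every code while its identical copy H2ac19 overlaps, and H2bc21 runs the other way in T_P and T_I.

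In T_I against N_I the largest log2 fold changes of all 46 tested histone genes were those of H2ac10 and H2ac7, also H2A genes. H2ac10 had 14.8, 23.6 and 13.3 TPM in T_I and 0, 0.89 and 0 TPM in N_I, a log2 fold change of 3.84 ± 0.53 (SE; limma adjusted p = 1.15e-05). In T_P it had 11.8, 6.93 and 15.5 TPM, against 0, 0 and 0.84 TPM in N_P (3.28, adjusted p = 5.41e-05). In T_GC it had 4.55, 3.55 and 0 TPM, against 0, 0 and 0.49 TPM in N_GC, and these overlapped (1.36, adjusted p = 0.0596).

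H2ac7 had 10.5, 12.6 and 14.2 TPM in T_I and 0, 1.05 and 0.30 TPM in N_I (log2 fold change 3.27, limma adjusted p = 3.79e-06). It rose also in T_P (1.96) and in T_GC, where the values were 4.35, 6.69 and 1.30 TPM against 0.49, 1.11 and 0 TPM in N_GC (1.64, adjusted p = 0.00580). Fitted on the T_GC and N_GC libraries alone, the last call was lost (0.0537).

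Of the other 9 tested H2A genes, H2ac24 and H2ac11 rose with codes I and P and H2ac8 with code P. H2ac11, H2ac12 and H2ac22 were listed at 0 in all 3 N_GC libraries. They had 0.63 to 1.71 TPM, 1.16 to 2.22 TPM and 0.50 to 4.02 TPM in T_GC, and each was called higher there; no fold is given against a group listed at 0. For H2ac11 that call was lost without T_GC replicate 37 or any N_GC library (limma adjusted p = 0.0758 to 0.133), and the one with code I without T_I replicates 12 or 27 or N_I replicate 18 (0.0530 to 0.0716). H2ac12 was not called with code I, with 1.65 ± 0.37 TPM in T_I and 1.87 ± 0.89 TPM in N_I (SD, n = 3 each). Its call in T_P against N_P (0.79, limma adjusted p = 0.0257) was lost without T_P replicates 26 (0.108) or 43 (0.0931) or N_P replicates 17 (0.117) or 38 (0.0508). H2ac22 rose with codes I (1.16) and P (1.13), the second lost without T_P replicate 26 (adjusted p = 0.0607). H2ac13, H2ac14, H2ac15 and H2ac20 were called in none of the codes.

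Among H2B genes, H2bc4 was the most abundant, and its model has a long 3′ UTR with no stem-loop. It had 23.9, 21.8 and 23.3 TPM in T_I and 8.71, 7.60 and 13.8 TPM in N_I, a log2 fold change of 1.16 ± 0.23 (SE; limma adjusted p = 0.000410). In T_P it had 24.2, 27.4 and 29.8 TPM, against 9.29, 10.9 and 7.07 TPM in N_P (1.49, adjusted p = 4.00e-05). T_GC values of 8.96, 14.1 and 13.7 TPM overlapped the 6.30, 11.9 and 8.74 TPM of N_GC (0.42, adjusted p = 0.178).

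H2bc24 had 8.20, 6.24 and 5.48 TPM in T_I and 0.70, 0.45 and 1.90 TPM in N_I (log2 fold change 1.97, limma adjusted p = 4.32e-05), and rose with code P as well (1.80). With code GC it rose by 1.08 (adjusted p = 0.0144), a call lost without T_GC replicate 21 (0.91, adjusted p = 0.0651). H2bc23, whose coding sequence is identical to that of H2bc24, rose in all 3 codes, with 1.15 to 2.51 TPM in T_GC and 0.18 to 0.31 TPM in N_GC (1.17, adjusted p = 0.000410). H2bc12 had 4.47, 7.0 and 9.05 TPM in T_I, against 0.75, 1.49 and 0 TPM in N_I (2.22, adjusted p = 0.000595). H2bc6 and H2bc8 rose with codes I and P, the H2bc8 call with code P being lost without T_P replicate 39 (adjusted p = 0.104) or N_P replicate 38 (0.0786). H2bc3 and H2bc11 rose with code I. The H2bc3 call was lost without T_I replicates 8 or 12 or N_I replicates 18 or 96 (0.0708 to 0.107), and the H2bc11 call without T_I replicate 8 or N_I replicates 18 or 96 (0.0792 to 0.137). H2bc14 and H2bc18 were called in none.

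H2bc21 was the only tested histone gene to fall in a T group against the N group of its code. It encodes H2BE, a form of H2B known from olfactory neurons of the mouse, and its model ends in a long 3′ UTR without the stem-loop. It had 3.02, 2.65 and 3.85 TPM in T_I, against 5.05, 5.86 and 6.93 TPM in N_I, and 2.55, 3.31 and 3.32 TPM in T_P, against 7.73, 5.24 and 6.74 TPM in N_P. No libraries overlapped in either code. The log2 fold changes were -0.74 (limma adjusted p = 0.00357) and -0.89 (0.000862). Under median-of-ratios scaling the first was -0.32 and lost its call (adjusted p = 0.149), while the second kept it at -0.50 (0.0270). In T_GC it had 6.57, 6.65 and 3.69 TPM, which overlapped the 6.73, 7.11 and 5.41 TPM of N_GC (-0.19, adjusted p = 0.490).

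H3 genes were the lowest core class, and the 3 highest by mean were H3c10, H3c8 and H3c15. H3c8 had 3.14, 5.54 and 5.38 TPM in T_I and 0.27, 0 and 0 TPM in N_I (log2 fold change 2.36, limma adjusted p = 2.85e-05). In T_P it had 4.56, 3.97 and 1.83 TPM and was listed at 0 in all 3 N_P libraries. In T_GC it had 2.25, 1.47 and 0.43 TPM, which overlapped the 1.55, 0 and 0.69 TPM of N_GC.

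H3c10 was not called, with 1.17 to 4.75 TPM in T_I and 0 to 1.51 TPM in N_I (1.32, limma adjusted p = 0.0706), but was called with median-of-ratios scaling (1.59, 0.0338). H3c15 had 0.58 to 2.22 TPM in T_I and 0.33 to 1.14 TPM in N_I (0.42, adjusted p = 0.211); under that scaling it too was called (0.69, 0.0493). H3c3 rose in all 3 codes (0.93, 1.28 and 0.91 for codes I, P and GC), H3c2 with codes I and P, H3c4 with code P and H3c11 with code I. The H3c4 call was lost without any 1 of the 6 libraries (limma adjusted p = 0.0561 to 0.133), and that of H3c2 with code P without T_P replicates 26 or 43 or N_P replicate 29 (0.0744 to 0.0798). For H3c3 the call with code GC was lost without N_GC replicates 11 (0.0613) or 36 (0.0625), and the one with code I with a pseudocount of 0.1 (0.0503). H3c2 was listed at 0 in all 3 N_I libraries and had 0.58 to 1.59 TPM in T_I. H3c1, H3c13 and H3c14 were called in none.

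H4 genes made the second largest class. H4c17 had 43.2, 29.3 and 21.9 TPM in T_GC, 41.0, 42.4 and 40.5 TPM in T_P, and 41.5, 42.9 and 22.0 TPM in T_I. It had 11.4, 10.8 and 10.5 TPM in N_GC, 11.9, 14.3 and 9.56 TPM in N_P, and 14.2, 14.9 and 14.5 TPM in N_I. All T libraries stood above all N libraries, though T_I replicate 27 and T_GC replicate 37 lay well below the others. The log2 fold changes were 1.18 ± 0.23 (SE; limma adjusted p = 0.000398), 1.73 (1.05e-05) and 1.40 (0.000354) for codes I, P and GC.

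H4c18 has the same coding sequence as H4c17. It overlapped between T and N in every code, with 10.1 ± 1.30 TPM in T_I and 7.70 ± 3.91 TPM in N_I (SD, n = 3 each). Summed with H4c17 it gave 38.96 ± 11.20 TPM in T_GC, 51.8 ± 1.22 TPM in T_P, 45.6 ± 10.5 TPM in T_I, 20.3 ± 2.84 TPM in N_GC, 19.2 ± 6.45 TPM in N_P and 22.2 ± 3.72 TPM in N_I.

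H4c9 had 8.93, 10.9 and 10.4 TPM in T_GC, 19.1, 18.0 and 15.2 TPM in T_P, and 17.1, 18.7 and 19.4 TPM in T_I. It had 4.76, 6.07 and 7.35 TPM in N_GC, 3.55, 4.22 and 6.92 TPM in N_P, and 3.74, 5.13 and 6.61 TPM in N_I. The libraries of T and N did not overlap in any code. It rose by a log2 fold change of 1.68 both in T_I against N_I (limma adjusted p = 3.31e-06) and in T_P against N_P (3.26e-06). In T_GC against N_GC it rose by 0.66 (adjusted p = 0.0211), a call lost without T_GC replicates 21 (0.0699) or 37 (0.0525), without N_GC replicate 11 (0.0930) and with group weights (0.0688).

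H4c11 rose with codes I (1.02) and P (0.64), the second lost with a pseudocount of 0.1 (limma adjusted p = 0.0677) and without T_P replicate 26 (0.0867) or N_P replicates 17 (0.0530) or 29 (0.0543). H4c8 rose with code I (1.15, adjusted p = 0.0467), a call lost without T_I replicates 8, 12 or 27 or N_I replicates 18 or 96 (0.0504 to 0.242). H4c1, H4c2, H4c3 and H4c12 were called in none of the codes.

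**Figure D4:**
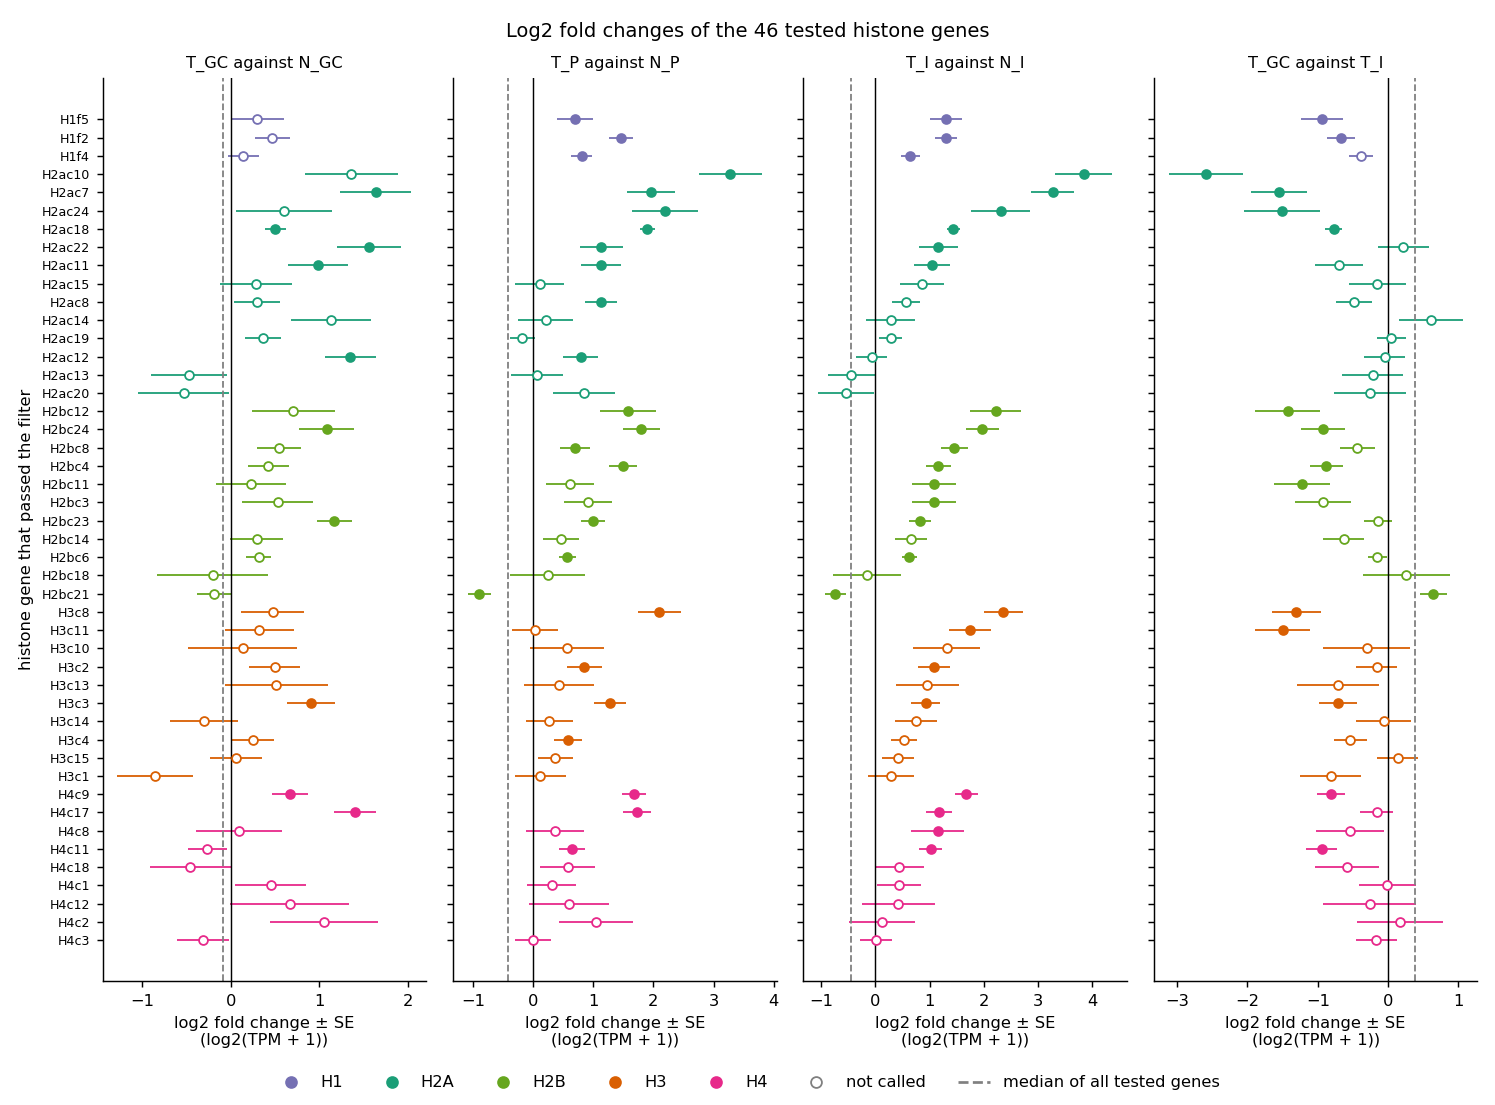
Log2 fold change (x axes; bars are SE of the limma fit) of each of the 46 tested histone genes in 4 comparisons, coloured by class; filled points were called, open points were not, and the dashed line is the median of all tested genes. Most points lie right of that line in the 3 comparisons of T with N and left of it in T_GC against T_I, and H2bc21 lies on the other side in T_P, T_I and T_GC against T_I.

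Between codes within the tumour groups, 15 of the 46 tested histone genes fell and 1 rose in T_GC against T_I. Over all genes tested, 12.7% fell and 48.7% rose, and the median log2 fold change was -0.51 for histone genes and 0.38 for all genes. Among the 26 with 1 TPM or more in 3 or more N libraries, 8 fell and 1 rose (median -0.37). The other 7 that fell were among the 20 that needed their T libraries to pass the filter. This comparison shares the T_I and T_GC libraries with those above. With median-of-ratios scaling the all-gene median shifted by -0.38, and 24 histone genes fell and none rose, where 28.2% of all genes fell and 23.1% rose. With a pseudocount of 0.1 the count was 8 fallen and 1 risen.

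H2ac18 fell by 0.77 on the log2 scale (limma adjusted p = 5.55e-05) and H4c9 fell by 0.81 (0.00310). H2ac10 fell by 2.60 (adjusted p = 0.000622), H2ac7 fell by 1.55 (0.00379) and H4c11 fell by 0.94 (0.00175). In these 5 genes all 3 T_GC libraries lay below all 3 T_I libraries. The H2ac18 value depends on its uncertain split from H2ac19, and the sum of both was 90.6 TPM in T_GC and 122 TPM in T_I. The H2ac7 call was lost with a pseudocount of 0.1 (adjusted p = 0.0991), as were those of H3c8 (0.0691), H2bc24 (0.0621), H2bc12 (0.189), H2ac24 (0.124), H3c3 (0.216) and H3c11 (0.0546).

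H2bc4, H2bc11, H2bc12, H2ac24, H3c3, H3c8 and H3c11 fell too, with all T_GC libraries below all T_I libraries. The call was lost for H2bc11 without T_I replicate 8 or T_GC replicate 21 (limma adjusted p = 0.0501 to 0.0878), for H2bc12 (0.0586 to 0.0777) and H2ac24 (0.0850 to 0.146) without T_I replicate 27 or T_GC replicate 21, and for H3c3 without T_I replicates 8 or 12 or T_GC replicates 21 or 37 (0.0652 to 0.133). H2bc24 fell by 0.92, a call also lost without T_I replicate 8 (limma adjusted p = 0.0697) or T_GC replicate 10 (0.0971). H1f2 fell by 0.68 (adjusted p = 0.00864), which became 0.0508 without T_I replicate 12. H1f5 had 1.40, 0 and 0 TPM in T_GC and 1.15, 2.62 and 1.2 TPM in T_I, and its call (0.0125) was lost without T_I replicate 12 (0.0704), without T_GC replicates 21 (0.0619) or 37 (0.0589) and in a fit of these groups alone (0.0817).

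H2bc21 was the gene that rose, to 5.64 ± 1.69 TPM in T_GC, against 3.17 ± 0.61 TPM in T_I (SD, n = 3 each; log2 fold change 0.64, limma adjusted p = 0.0102). The libraries overlapped, since T_GC replicate 37 had 3.69 TPM and T_I replicate 27 had 3.85 TPM. The call was lost with median-of-ratios scaling (0.27, adjusted p = 0.244) and in a fit of these groups alone (0.0529). H4c17 was not called in this comparison (-0.16), nor was H2ac19 (0.05).

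Whether the T-to-N difference itself differed between codes GC and I was tested as an interaction. It was lower with code GC for 8 of the 46 histone genes and higher for 1, against 6.93% and 33.4% of all genes tested. Of the 26 with 1 TPM or more in 3 or more N libraries, it was lower for 4 and higher for none. Of the 20 that needed their T libraries to pass the filter, it was lower for 4 and higher for 1. Median-of-ratios scaling shifted the all-gene median by -0.35. The difference was then lower for 16 of the 46 and higher for none, against 19.2% and 14.1% of all genes. H2ac18 had the smallest p, with a difference of -0.94 ± 0.17 (SE; limma adjusted p = 0.000529). Its size depends on the uncertain split of reads between H2ac18 and its copy H2ac19. Summed, the 2 copies had 122 TPM in T_I and 63.1 TPM in N_I, against 90.6 TPM in T_GC and 66.9 TPM in N_GC. No interaction was tested on that sum. The same interaction for code P called no histone gene, where 0.018% of all genes were called. An unadjusted limma p under 0.05 was found for 4 of the 46 histone genes and for 1146 of all 16635 genes.

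Between T_P and T_I limma called no tested histone gene, and 0.012% of all genes were called. An unadjusted p under 0.05 was found for 3 of the 46 histone genes and for 1010 of all 16635 genes. N_P against N_I called none, with 0.571% of all genes called. There 4 of the 46 and 2247 of all 16635 genes had an unadjusted p under 0.05. The T_P values of H2ac18 were higher by 0.10 on the log2 scale (95% interval -0.15 to 0.35), and those of H4c9 differed by -0.08 (-0.52 to 0.35). For H2ac19 the 3 T_P libraries all lay below the 3 T_I libraries (-0.65, adjusted p = 0.699). N_GC against N_I called 1 histone gene, H2ac12, lower in N_GC, where 2.3% of all genes were called lower. It was listed at 0 in all 3 N_GC libraries and had 2.39, 0.84 and 2.38 TPM in N_I (limma adjusted p = 0.0148). That call was lost without N_I replicate 96 (0.0959), without N_GC replicates 11 (0.0517) or 36 (0.0537) and, with H2ac12 not passing the filter there, in a fit of these groups alone.

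Features that the naming rule did not use were set beside the calls as descriptions. In T_I against N_I, 17.4% of all genes rose and 52.4% fell. Of 30 tested genes with the stem-loop in their model 18 rose and none fell, and of 16 without it 7 rose and 1 fell. The median log2 fold changes were 0.97 and 0.91. By cluster, 24 of 38 tested genes on chromosome 13 rose and none fell, while on chromosome 3, which holds H2ac18, H2ac19 and H2bc21, 1 of 8 rose and 1 fell. The chromosome 3 calls depended on scaling. With median-of-ratios scaling H2ac19 and H3c15, both on chromosome 3, were called higher and H2bc21 lost its call. The sum of the copies H2ac18 and H2ac19 was 122 TPM in T_I and 63.1 TPM in N_I. Of the 9 tested genes with the octamer in their promoter, 4 rose. Genes facing each other did not always move alike: H2bc12 rose by 2.22 while its neighbour H2ac12 had a log2 fold change of -0.07, and H2ac11 and H2bc11 rose by 1.05 and 1.08.

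Genes of histone supply were taken as lists. Histone variants that cells make outside S phase or throughout the cycle showed 6 risen and none fallen of 10 tested under code I, 7 and none under code P, and 5 and none under code GC, against 17.4%, 18.9% and 14.3% of all genes risen. With median-of-ratios scaling 10, 10 and 7 rose, against 32%, 32.3% and 18%. H2az1, the H2A.Z that marks promoters, averaged 453 TPM in T_GC, 788 TPM in T_P, 816 TPM in T_I, 222 TPM in N_GC, 244 TPM in N_P and 257 TPM in N_I. H2ax, the H2A form phosphorylated at DNA breaks, averaged 199 ± 12.3 TPM in T_I and 54.2 ± 5.06 TPM in N_I (log2 fold change 1.86, limma adjusted p = 5.66e-08). The H3.3 genes H3f3a and H3f3b, which supply H3 outside replication, were higher in level than any canonical H3 gene and were not called in any of the 3 comparisons of T with N (0.18 and 0.10 in T_I against N_I). Both were called higher under median-of-ratios scaling in T_I against N_I (0.70 and 0.63) and in T_P against N_P (0.62 and 0.70).

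Genes for transcribing and processing histone mRNA stood near all genes. Of 20 tested, 2 rose and 11 fell in T_I against N_I, where 17.4% of all genes rose and 52.4% fell, and their median of -0.37 on the log2 scale compares with -0.45 for all genes. With median-of-ratios scaling 8 rose and 5 fell, with a median of 0.08, where 32% of all genes rose and 30.2% fell. Slbp rose to 120.5 ± 7.79 TPM in T_I, against 74.5 ± 1.82 TPM in N_I (SD, n = 3 each; 0.68, limma adjusted p = 4.68e-05), and also with codes P (0.66) and GC (0.65). Npat, the coactivator of histone gene transcription in S phase, had 5.37 TPM in T_I and 8.03 TPM in N_I (-0.50, adjusted p = 0.000788), and its call was lost under the other scaling (-0.05). Mif4gd, which links Slbp to translation, fell by 1.60 (adjusted p = 3.34e-09). In T_GC against T_I, 15 of the 20 rose and none fell, where 48.7% of all genes rose, and under median-of-ratios scaling 4 rose and 6 fell.

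Histone chaperones and modifiers of new histones split. Of 25 tested, 9 rose and 11 fell in T_I against N_I, where 17.4% of all genes rose and 52.4% fell. Under median-of-ratios scaling 16 rose and 4 fell, where 32% of all genes rose and 30.2% fell. Asf1b, the H3 and H4 chaperone of dividing cells, had 69.0 TPM in T_I and 14.4 TPM in N_I (log2 fold change 2.18, limma adjusted p = 3.24e-08). Chaf1a and Chaf1b, subunits of the factor that deposits H3 and H4 behind the fork, rose by 1.79 and 1.02. Ipo4, an importer of new H3 and H4, fell by 1.21 and Cabin1, a partner of the H3.3 chaperone Hira, fell by 0.78.

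Of 31 genes of S phase, 29 rose between T and N under code I, 29 under code P and 28 under code GC, with none fallen. Over all genes 17.4%, 18.9% and 14.3% rose and 52.4%, 50.3% and 18.9% fell. With median-of-ratios scaling 31, 31 and 29 of them rose, against 32%, 32.3% and 18% of all genes. Their summed TPM was 1893 ± 90.8 in T_I and 774 ± 11.7 in N_I (SD, n = 3 each). Rrm2, a subunit of the reductase that makes deoxynucleotides, had 135 TPM in T_I and 21.0 TPM in N_I (log2 fold change 2.63). In T_GC against T_I, 12 of the 31 fell and none rose, with a median of -0.34, where 12.7% of all genes fell. With median-of-ratios scaling 30 of the 31 fell (median -0.79), where 28.2% of all genes fell. Within T_GC the S phase sum ran from 991 to 1938 TPM, while the histone sum kept to 229 to 254 TPM; replicate 10 was highest in both.

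**Figure D5:**
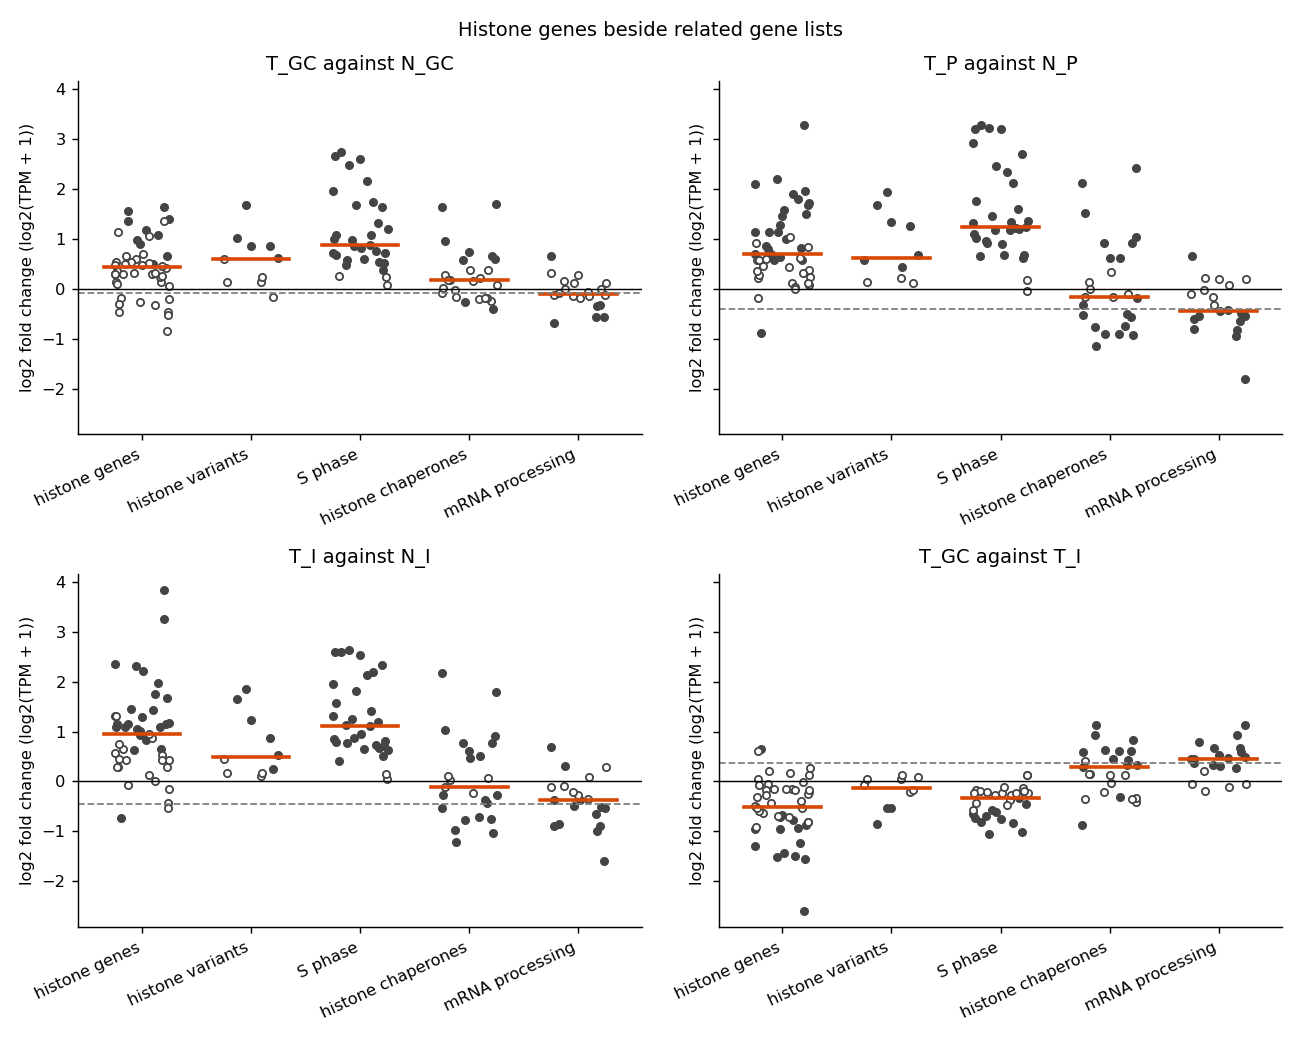
Log2 fold change (y axes) of the tested histone genes and of 4 related lists in 4 comparisons; each point is a gene, filled where called, the orange bar is the list's median and the dashed line the median of all tested genes. The medians of histone and S phase genes lie above that line in the comparisons of T with N and below it in T_GC against T_I. Single genes lie on the other side, H2bc21 among them. The median of the mRNA processing genes lies near the line.

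Levels of cell type markers differed between the groups. All 5 B cell, 5 T cell and 4 red pulp macrophage markers were detected, and all were called lower in T_I than in N_I, where 52.4% of all genes fell. With median-of-ratios scaling all 5 B cell, all 5 T cell and 3 of the 4 macrophage markers were called lower, where 30.2% of all genes fell. The B cell markers averaged a summed 2189 TPM in T_GC, 556 TPM in T_P, 526 TPM in T_I, 3044 TPM in N_GC, 2859 TPM in N_P and 2629 TPM in N_I. T cell markers summed to 326 TPM in T_GC, 92.5 TPM in T_P, 97.7 TPM in T_I, 762 TPM in N_GC, 663 TPM in N_P and 569 TPM in N_I. For red pulp macrophages the sums were 786 TPM in T_GC, 283 TPM in T_P, 293 TPM in T_I, 717 TPM in N_GC, 755 TPM in N_P and 1201 TPM in N_I. In T_GC against N_GC, 2 of the 5 B cell markers, all 5 T cell markers and none of the 4 macrophage markers were called lower. All 5 neutrophil and all 5 granulocyte precursor markers were called higher in T_I than in N_I. The 5 neutrophil markers summed to 4.61% of all TPM in T_GC, 17.8% in T_P, 18.0% in T_I, 0.0614% in N_GC, 0.370% in N_P and 0.468% in N_I. Markers of granulocyte precursors summed to 346 to 573 TPM in T_GC, 4722 to 5615 TPM in T_P, 4785 to 6297 TPM in T_I, 2.19 to 3.0 TPM in N_GC, 18.5 to 39.2 TPM in N_P and 19.6 to 81.7 TPM in N_I. The 8 markers of erythroid precursors summed to 268 to 516 TPM in T_I and 2543 to 4483 TPM in N_I, with 1 called higher and 3 lower. They summed to 223 to 495 TPM in T_P and 898 to 2208 TPM in N_P, with 3 called higher and 3 lower. With code GC they summed to 964 to 1570 TPM in T_GC and 1226 to 5481 TPM in N_GC, with 4 called higher and none lower. The 4 plasmablast markers summed to 435 TPM in T_I and 1162 TPM in N_I, with 1 called higher and 3 lower. Their sums were 520 TPM in T_P and 854 TPM in N_P, also with 1 called higher and 3 lower. With code GC they were 798 TPM in T_GC and 829 TPM in N_GC, with none called. Over all genes, 17.4%, 18.9% and 14.3% rose and 52.4%, 50.3% and 18.9% fell for codes I, P and GC. Of the 4 epithelial markers, Krt14 was listed at 0 in all libraries and Krt8 averaged under 0.1 TPM in every group. Krt18 averaged 1.32 TPM in T_I and 0.463 TPM in N_I and was called higher, while Epcam averaged 0.880 TPM in T_I and 2.83 TPM in N_I and was called lower. The part of these shifts in the histone results was not tested, and in such bulk samples fewer cells of a type and less RNA per cell cannot be told apart.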

How the data were processed

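The authors deposited 1 table of TPM for 56876 genes and 18 libraries, made with fastp and RSEM on GRCm39 (per the submitters' processing notes, without versions). RSEM shares reads among near-identical copies, so values of single copies are uncertain. All columns were used. Histone genes were taken by symbol, and the genes and lists were chosen with earlier results of these data known. Genes that reached 1 TPM in 3 or more libraries were fitted as 6 group means on log2(TPM + 1) with limma 3.58.1 in R 4.3.3 (intensity trend, 12 residual degrees of freedom, two-sided, Benjamini-Hochberg within each comparison). The fit was tested on simulated data. Named were the 3 highest members of each class, up to 5 called members of smallest p in each direction and comparison, and further histone genes chosen after their values were seen. Other named genes include those of smallest p in each list. Alternatives tried were median-of-ratios scaling, a pseudocount of 0.1, a 5 TPM filter or none, group weights, fits of single comparisons and omission of each library. Transcripts were matched to GENCODE M21 by gene ID (65 of 65) and promoters to RefSeq GRCm38.p6 by symbol (57 of 65); the expression values are of another build, so no coordinates were combined.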

Additional observations from a re-analysis of the deposited data

Results flagged for a closer look

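The difference between T and N differed between code GC and code I, by the limma interaction test, for 9 histone genes. It was lower with code GC by -0.94 for H2ac18 (adjusted p = 0.000529), -1.29 for H4c11 (0.00443), -1.89 for H3c8 (0.00787), -1.02 for H4c9 (0.0114), -2.48 for H2ac10 (0.0158), -0.83 for H1f2 (0.0293), -1.63 for H2ac7 (0.0329) and -1.43 for H3c11 (0.0499), all log2. It was higher by 1.42 for H2ac12 (adjusted p = 0.0135), which was listed at 0 in every N_GC library. The H2ac10 call was lost with a pseudocount of 0.1 (adjusted p = 0.154) and the H2ac12 call with median-of-ratios scaling (adjusted p = 0.0784). Leaving out 1 of the 12 libraries at a time, the H1f2 call was lost in 8 of 12 runs (adjusted p up to 0.0793), the H2ac7 call in 7 (up to 0.0828) and the H3c11 call in 8 (up to 0.132), all 3 of them without T_I replicate 12; the calls of the other 6 genes were kept in each such run. H2ac7 (0.233) and H3c11 (0.220) also lost theirs with a pseudocount of 0.1. These values use the same T_GC, T_I, N_GC and N_I libraries as the comparisons above. The size for H2ac18 depends on its uncertain split from the copy H2ac19, and the sum of both was not tested.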

How the results depend on the processing

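No paired analysis was possible because the replicate numbers are not repeated across groups. Over all comparisons 87 log2 fold changes of histone genes were called; 52 kept their call in every alternative in which the gene was fitted, 35 lost it in at least 1 and none reversed. A filter of 5 TPM left 12 histone genes to test, of which 10 were called between T and N under code I, 10 under code P, 5 under code GC, 9 in T_GC against T_I, 5 in the code GC interaction and 0 in N_GC against N_I. A pseudocount of 0.1 gave 9 called in T_GC against T_I, median-of-ratios scaling 16 in the code GC interaction, and a fit of the compared libraries alone 0 in N_GC against N_I; the cause was not tested. Without 1 library, N_GC against N_I called 0 to 1. The share of all genes called was not computed for the 5 TPM filter, the pseudocount of 0.1 or the fits of fewer libraries. The summed TPM of all members differed by 1.27 ± 0.09 (log2 ratio, SE) in T_I against N_I and 1.80 with median-of-ratios scaling. Many histone genes lie near 1 TPM, and with the depth unknown no counting error can be given.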

Other observations

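The genes named in this paragraph were chosen after their values were seen. The 19 histone genes that did not pass the filter stayed at or under 1.95 TPM in every library, apart from the pseudogene row H2ac5-ps. That row had 5.35 TPM in N_GC replicate 36, 0.54 to 1.78 TPM in T_I, 0.76 TPM in 1 N_I library, and was listed at 0 in the other 13 libraries. H2ac4 was listed at 0 in all T_GC libraries and all N libraries, and had 0.61, 0.57 and 0.76 TPM in T_I and 0.85, 0.83 and 0 TPM in T_P. H3c7 had 0.40, 0.65 and 0.92 TPM in T_I and 0, 0.32 and 0 TPM in N_I. H2bc22 was listed at 0 in all N_I and N_P libraries and had 0.26, 0.23 and 0.50 TPM in T_I and 0.80, 0.16 and 0.91 TPM in T_P. Without a filter, 63 of the 65 genes could be fitted, and 29 were called higher and 1 lower in T_I against N_I. Over all 31439 genes fitted without a filter, 3190 were called higher and 9362 lower.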
